A study of Homo sapiens with 2 samples.

Results

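The genes described here encode the machinery that removes the poly(A) tail, takes off the cap and digests the body of messenger RNA, together with the core factors of nonsense-mediated decay. They were 52 genes chosen by symbol from the 60527 rows of a deposited FPKM table, and each symbol matched 1 row. FPKM is the number of fragments per kilobase of exon, scaled to the library's total. The RNA-seq libraries came from 2 cultures whose label is SK-MEL-2, a line derived from human melanoma. One culture had been given 1.75 µM JNJ-7706621 for 48 h, and the other had been given DMSO, the solvent, for 48 h. The compound is known to block Aurora kinases and kinases that need cyclins, and the series title concerns the binding of AUF1 to mRNA and the degradation of mRNA. The comparison therefore addresses whether the mRNAs of the decay machinery itself stood at other levels in the treated culture.

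Most cytoplasmic mRNAs are known to decay in a set order. The CCR4-NOT and PAN2-PAN3 complexes shorten the poly(A) tail, after which the LSM1-7 ring binds the shortened end and helps to recruit the decapping enzyme DCP2. The decapped body is then digested by XRN1, or the RNA exosome digests it from the other end. Nonsense-mediated decay, carried out by the UPF and SMG proteins, removes mRNAs on which translation stops too early. AUF1 is known to act on AU-rich elements in the untranslated tail region of mRNAs, and such elements can recruit deadenylases and the exosome.

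The recovered depth was 22817719 reads in the JNJ-7706621 library and 23377161 reads in the DMSO library. The table has 2 further value columns, named for the same groups with the number 2 in place of 1, which match no sample record used here and were not analysed. The comparison therefore rests on 1 library per group, with no replicate check and no test. Intervals in parentheses are 95% counting intervals of the ratio of JNJ-7706621 over DMSO, and they cover counting error only. The culture label was checked with 6 melanocyte markers, whose summed level was 6.17 FPKM in the JNJ-7706621 library and 4.86 FPKM in the DMSO library. SOX10, TYR and DCT were listed at 0 in the JNJ-7706621 library, and TYR was listed at 0 in the DMSO library. MITF stood at 2.27 FPKM in JNJ-7706621 and 2.65 FPKM in DMSO. PMEL stood at 3.71 FPKM in JNJ-7706621 and 2.00 FPKM in DMSO, and MLANA at 0.190 and 0.200 FPKM. The epithelial markers KRT8, KRT18, EPCAM and CDH1 summed to 1953 FPKM in JNJ-7706621 and 1943 FPKM in DMSO. The markers, with MITF and PMEL the exceptions at low levels, thus went against the label melanoma in both libraries. The cultures are named here by their label alone. In bulk RNA, fewer cells of a type and less RNA per cell cannot be told apart.

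Each of the 52 decay genes was expressed in both libraries and passed the filter of a mean of at least 1 FPKM. They ranged between 1.05 and 76.7 FPKM in the JNJ-7706621 library and between 1.43 and 78.04 FPKM in the DMSO library. Reads per gene ranged between 174 and 5967 in the JNJ-7706621 library and between 154 and 6217 in the DMSO library. Differences are given as log2(FPKM + 1) in JNJ-7706621 minus the same in DMSO. No decay gene was 2-fold higher or 2-fold lower by this measure, against 2.39% and 1.36% of all 13241 genes measured and 1.79% and 0.62% of the protein-coding genes. At 1.5-fold, 0 decay genes were higher, against 8.53% of all genes and 7.14% of protein-coding genes. In the other direction 5 were lower, or 9.62% of the 52, against 6.77% of all genes and 5.14% of protein-coding genes. The 5 were UPF2, BTG1, TOB1, DCPS and SMG1. With so few genes, this share is close to that of all genes. The median difference over the 52 genes was -0.02, beside -0.0032 over all genes. Differences of 22 decay genes lay above 0 and those of 30 below 0, against 49.6% and 50.4% of all genes.

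Counting error alone covered the difference of some decay genes and not of others. The interval of the ratio lay above 1 for 14 decay genes, below 1 for 19 and across 1 for 19. Among 13108 genes with recovered reads, 32.8% had an interval above 1 and 33.2% below 1. The complexes differed in how these genes were spread. In the exosome core 4 of 9 genes and in the LSM ring 4 of 7 had an interval above 1, and none had one below 1. Of the nonsense-mediated decay genes 4 of 6, of the TOB/BTG adaptors 2 of 3 and of the decapping genes 6 of 10 had an interval below 1. Above 1 these groups had 0, 1 and 2 genes. CCR4-NOT had 2 genes above 1 and 4 below, the exosome nucleases 1 and 2, and PAN2-PAN3 with PARN 0 and 1. With so few genes per group, these counts do not set a complex apart from all genes.

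**Figure D1:**
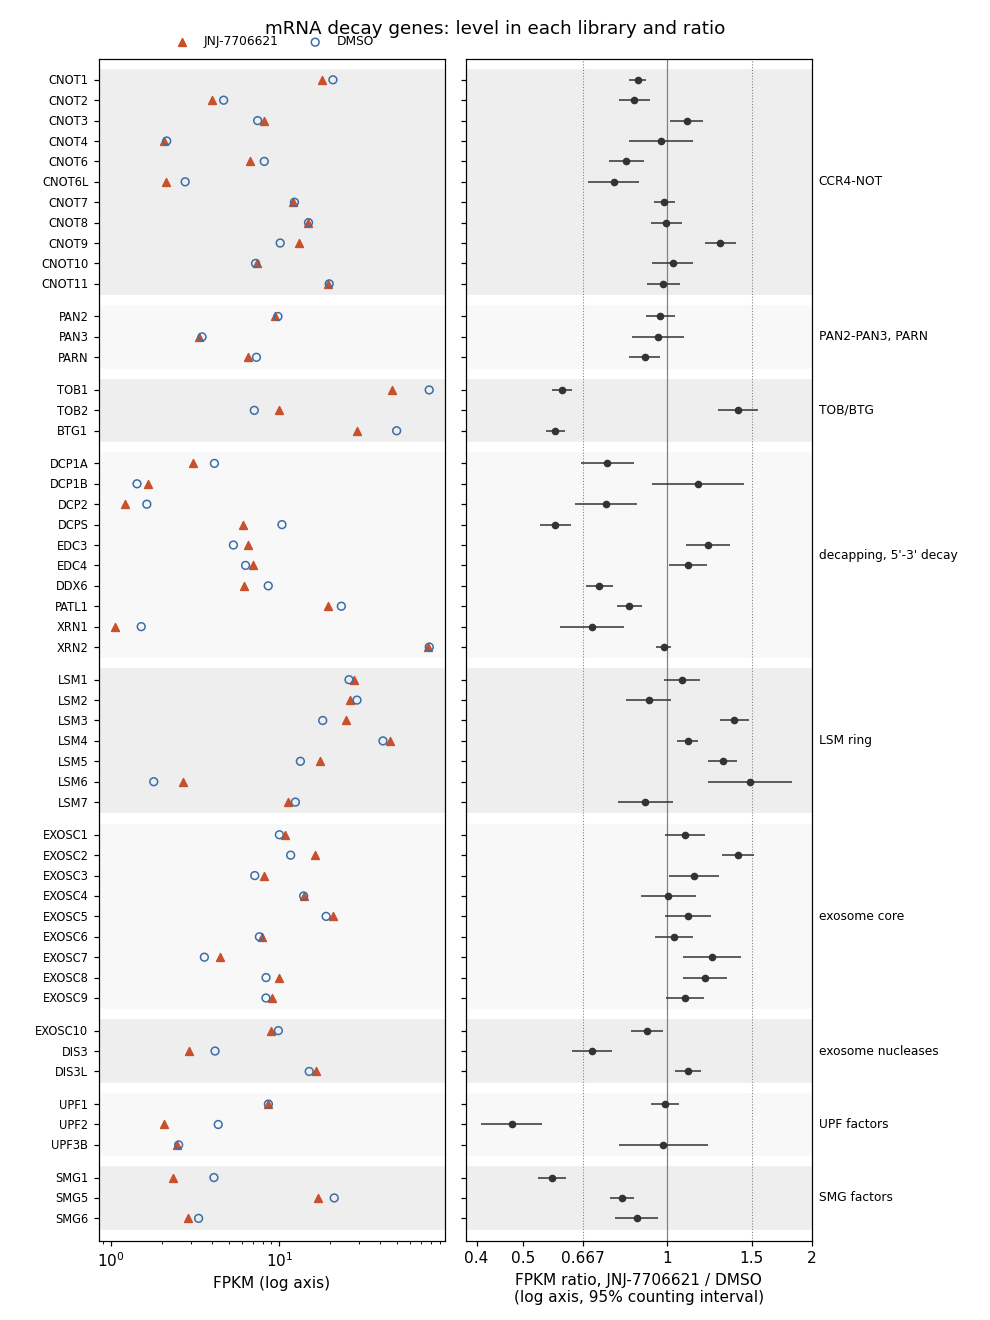
Left, FPKM of each decay gene on a log axis in the JNJ-7706621 library (triangles) and the DMSO library (open circles). Right, the ratio of JNJ-7706621 over DMSO on a log axis with its 95% counting interval, with dotted lines at 1.5-fold. Grey bands mark the complexes. UPF2, at a ratio of 0.474, lies farthest to the left, and the 9 genes of the exosome core lie at or to the right of 1, EXOSC4 crossing to the left under either rescaling and with either trend taken off.

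Deadenylation begins with the CCR4-NOT complex. The 11 genes listed under its name had a median difference of -0.03, with 3 above 0, 8 below 0 and none past 1.5-fold. The balance turned to 6 above 0 and 5 below 0 when a trend of the differences in exon length and GC content, fitted over all genes, was taken off. With a trend fitted over protein-coding genes it was 5 above 0 and 6 below 0. CNOT1, the scaffold on which the other subunits assemble, stood at 18.1 FPKM in the JNJ-7706621 library and 20.9 FPKM in the DMSO library, a ratio of 0.867 (0.833 to 0.902). CNOT2 and CNOT3 form the NOT module that ends the scaffold, and their ratios lay on opposite sides of 1. CNOT2 stood at 3.99 FPKM in JNJ-7706621 and 4.68 FPKM in DMSO, a ratio of 0.853 (0.791 to 0.920). CNOT3 stood at 8.17 FPKM in JNJ-7706621 and 7.45 FPKM in DMSO, a ratio of 1.10 (1.01 to 1.19). With either trend taken off both differences lay above 0, at 0.09 and 0.25 for CNOT2 and at 0.08 and 0.05 for CNOT3. CNOT9, which binds peptides of RNA-binding and silencing proteins, stood at 13.1 FPKM in JNJ-7706621 and 10.1 FPKM in DMSO, a ratio of 1.29 (1.196 to 1.39).

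The complex carries a nuclease of the CAF1 type and one of the CCR4 type, each encoded by a pair of paralogs. The CAF1 genes CNOT7 and CNOT8 had intervals that included 1. CNOT7 stood at 12.1 FPKM in JNJ-7706621 and 12.3 FPKM in DMSO, and CNOT8 at 14.9 FPKM in both. Their ratios were 0.986 (0.938 to 1.04) and 0.995 (0.922 to 1.07). The difference of CNOT7, -0.02, lay at 0.19 and 0.29 with the 2 trends taken off. The CCR4 genes were both lower in the JNJ-7706621 library, CNOT6 at 6.69 against 8.16 FPKM in DMSO and CNOT6L at 2.13 against 2.76 FPKM in DMSO. Their ratios were 0.820 (0.754 to 0.892) and 0.772 (0.682 to 0.873), and the difference of CNOT6L, -0.26, lay at -0.09 and -0.0089 with the 2 trends taken off. CNOT6L made up 0.319 of the level of CNOT6 in JNJ-7706621 and 0.339 in DMSO. Of the remaining genes in this group, CNOT4, a ubiquitin ligase, and CNOT10 and CNOT11, which dock on the scaffold together, had intervals that included 1.

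The other deadenylases were close to their DMSO levels. PAN2, the nuclease of the PAN complex, stood at 9.50 FPKM in JNJ-7706621 and 9.84 FPKM in DMSO. Its partner PAN3, which holds PAN2 on the poly(A) tail, stood at 3.33 FPKM in JNJ-7706621 and 3.48 FPKM in DMSO. PARN, a poly(A)-specific nuclease that also trims small RNAs, stood at 6.57 FPKM in JNJ-7706621 and 7.33 FPKM in DMSO, a ratio of 0.896 (0.833 to 0.964).

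The TOB and BTG proteins, which bind the CAF1 nucleases and bring them to mRNAs, included the deadenylation genes past 1.5-fold. TOB1 (chr17:50862223-50867978 on GRCh38) stood at 46.9 FPKM in JNJ-7706621 and 77.9 FPKM in DMSO, a ratio of 0.602 (0.574 to 0.631). BTG1 (chr12:92140278-92145897) stood at 29.2 FPKM in JNJ-7706621 and 49.9 FPKM in DMSO, a ratio of 0.584 (0.559 to 0.610). TOB2 (chr22:41433492-41447023) went the other way, at 9.98 FPKM in JNJ-7706621 and 7.11 FPKM in DMSO, a ratio of 1.40 (1.27 to 1.55). TOB1 was therefore 4.70 times the level of TOB2 in the JNJ-7706621 library and 10.95 times its level in the DMSO library. The summed level of the 3 genes was 86.1 FPKM in JNJ-7706621 and 135 FPKM in DMSO.

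The relatives BTG2 and BTG3, listed among further decay cofactors, also stood higher in the JNJ-7706621 library. BTG2, an antiproliferative gene known as a p53 target, stood at 11.5 FPKM in JNJ-7706621 and 2.65 FPKM in DMSO, and BTG3 at 22.2 FPKM in JNJ-7706621 and 16.1 FPKM in DMSO. The family was thus split, with the 2 most abundant genes lower and the 3 less abundant genes higher in the JNJ-7706621 library. Other genes share 11.1% of the exon bases of TOB1, 17.1% of those of BTG1 and 12.1% of those of BTG3. Whether counting used strand is not known here. For BTG1 it would not separate LINC01619, which lies on the same strand over 10.4% of the exon bases.

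**Figure D2:**
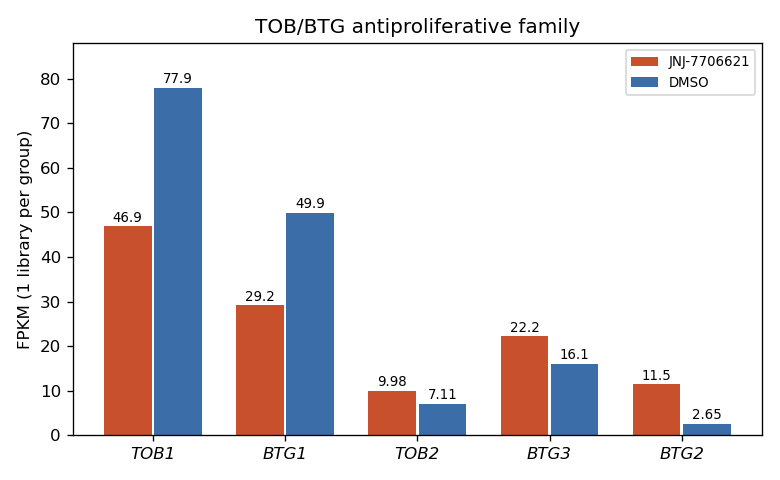
FPKM of 5 TOB/BTG family genes in the JNJ-7706621 library (left bars) and the DMSO library (right bars), 1 library per group, with the values printed above the bars. TOB1 and BTG1 are lower in the JNJ-7706621 library, and TOB2, BTG3 and BTG2 are higher.

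Because AUF1 binds AU-rich elements, the longest annotated 3' UTR of each gene was searched on the mRNA strand for the pentamer AUUUA and for the heptamer UAUUUAU, which contains the pentamer. The sites of the TOB/BTG family are shown because its genes lay on both sides of 0. Capitals mark the motif, pentamers for TOB1, which had no heptamer, and heptamers for the others. Sequences come from GENCODE release 29 transcripts on GRCh38. TOB1 is shown by the first and the last of its 4 pentamers.
TOB1 (chr17:50862737-50862761, minus strand): cucuuacaguAUUUAagauauagca
TOB1 (chr17:50862580-50862604, minus strand): augguauugcAUUUAuaucuuuuua
BTG1 (chr12:92140772-92140796, minus strand): uagauuucuUAUUUAUcugaaggua
TOB2 (chr22:41435382-41435406, minus strand): gcaaguccuUAUUUAUaugugaggc
BTG3 (chr21:17593833-17593857, minus strand): ggacuugagUAUUUAUauauugugc
BTG3 (chr21:17593729-17593753, minus strand): uauguaaguUAUUUAUauacaagga
BTG2 (chr1:203307530-203307554, plus strand): augaagagcUAUUUAUauauauuau
Genes that stood lower and genes that stood higher in the JNJ-7706621 library both carried these motifs. Over the 52 decay genes, 19 held at least 1 heptamer, or 36.5%, against 34.8% of 10146 measured genes with a 3' UTR. The 19 had a median difference of -0.14, with 4 above 0 and 15 below 0, and the 33 without a heptamer had a median of 0.03, with 18 above 0 and 15 below 0. Over all measured genes the medians with and without a heptamer were -0.03 and 0.02. With a heptamer 1632 of these lay above 0 and 1903 below 0, and without one 3448 and 3163. The genes with heptamers also had longer 3' UTRs, with a median of 2819 against 903 bases among the decay genes. With the trend in exon length and GC content of all genes taken off, the 19 genes had a median of -0.08 and the 33 one of 0.0044. Over all measured genes the medians with and without a heptamer were then 0.00065 and -0.0022. UPF2, SMG1 and DCPS, lower in the JNJ-7706621 library, held no heptamer. SMG1 held 13 pentamers and UPF2 held 3, and DCPS held none in an annotated 3' UTR of 141 bases. At least 1 pentamer was found in 78.8% of the decay genes and in 73.3% of the measured genes with a 3' UTR.

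The promoter sequences of TOB1 and BTG1, the pair that stood lower together, follow from RefSeq on GRCh38.p14. They run for 250 bases before and 50 bases after an annotated start, and of 2 starts of TOB1 the one with 45 CpG in the window is shown. Capitals mark matches on either strand to the GC box GGGCGG, the box CCAAT or the TATA sequence TATAAA, none of which contains another.
TOB1 (chr17:50866305-50866604, minus strand): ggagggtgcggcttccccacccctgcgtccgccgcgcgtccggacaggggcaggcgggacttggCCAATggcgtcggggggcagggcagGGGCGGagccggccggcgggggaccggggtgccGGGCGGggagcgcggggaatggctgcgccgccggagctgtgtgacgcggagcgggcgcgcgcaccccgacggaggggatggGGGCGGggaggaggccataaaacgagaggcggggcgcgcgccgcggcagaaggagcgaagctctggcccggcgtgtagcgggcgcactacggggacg
BTG1 (chr12:92145797-92146096, minus strand): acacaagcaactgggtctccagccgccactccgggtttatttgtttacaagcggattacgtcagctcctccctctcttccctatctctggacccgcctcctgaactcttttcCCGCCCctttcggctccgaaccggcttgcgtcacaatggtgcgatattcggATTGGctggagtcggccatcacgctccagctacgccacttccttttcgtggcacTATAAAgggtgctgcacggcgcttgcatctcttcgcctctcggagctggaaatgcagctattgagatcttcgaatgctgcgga
The TOB1 promoter shown held 3 GGGCGG and 1 CCAAT match, and the BTG1 promoter held 1 GGGCGG, 1 CCAAT and 1 TATAAA match. The window at the other TOB1 start, with 3 CpG, held no match to any of these. Which start was used in these cultures was not determined. The promoter window of TOB2, which stood higher, held 2 GGGCGG matches and neither of the other boxes. Of genes that stood lower, the UPF2 windows held 2 and 4 GGGCGG matches and the SMG1 window held 6. RefSeq gave 65 promoters for 46 of the 52 decay genes. GGGCGG was found in 80.0% of these and in 45.0% of all 35116 promoters in the table, CCAAT in 33.8% against 34.6% and TATAAA in 3.08% against 11.5%. All promoters were counted whether or not their genes were measured here, and each start was counted separately. The decay genes all passed the expression filter, so these shares do not compare like sets of genes. The cAMP response element, searched by its palindrome, was in 3.08% against 1.85%, and in neither promoter shown. BTG1 and EXOSC8 were the decay genes with TATAAA in this window.

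The 10 genes of decapping and 5' to 3' decay had a median difference of -0.25, with 3 above 0 and 7 below 0. DCP2, the enzyme that removes the cap, was among the least abundant decay genes, at 1.22 FPKM in JNJ-7706621 and 1.63 FPKM in DMSO, a ratio of 0.746 (0.643 to 0.866). The difference of DCP2, -0.25, lay at -0.08 and 0.015 with the 2 trends taken off. The DCP2 activator DCP1A stood at 3.09 FPKM in JNJ-7706621 and 4.12 FPKM in DMSO, a ratio of 0.749 (0.660 to 0.850). The paralog DCP1B, at 1.65 FPKM in JNJ-7706621 and 1.43 FPKM in DMSO, had an interval of 0.927 to 1.45 that included 1. DCP1A was thus 1.87 times the level of DCP1B in the JNJ-7706621 library and 2.88 times its level in the DMSO library.

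The scaffolds that enhance decapping went the other way. EDC3 stood at 6.49 FPKM in JNJ-7706621 and 5.35 FPKM in DMSO, a ratio of 1.21 (1.09 to 1.35). EDC4 stood at 6.97 FPKM in JNJ-7706621 and 6.31 FPKM in DMSO, a ratio of 1.10 (1.01 to 1.21). A noncoding gene on the same strand overlaps 21.2% of the exon length of EDC4. The helicase DDX6, which links deadenylation and repressed translation to decapping, was lower, at 6.21 FPKM in JNJ-7706621 and 8.61 FPKM in DMSO, a ratio of 0.721 (0.676 to 0.768). PATL1, which joins the LSM1-7 ring to the decapping enzyme, stood at 19.5 FPKM in JNJ-7706621 and 23.4 FPKM in DMSO, a ratio of 0.833 (0.784 to 0.885).

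The 5' to 3' nucleases stood far apart in level. XRN1, the cytoplasmic enzyme, stood at 1.05 FPKM in JNJ-7706621 and 1.51 FPKM in DMSO, a ratio of 0.696 (0.597 to 0.810). The difference of XRN1, -0.29, lay at -0.12 and -0.013 with the 2 trends taken off. XRN2, the nuclear enzyme that also acts in transcription termination, had the highest FPKM of the decay genes in both libraries. It stood at 76.7 FPKM in JNJ-7706621 and 78.04 FPKM in DMSO, a ratio of 0.983 (0.949 to 1.019). DCPS (chr11:126303752-126345754) hydrolyses the cap that remains after 3' to 5' decay. It stood at 6.07 FPKM in JNJ-7706621 and 10.4 FPKM in DMSO, a ratio of 0.584 (0.542 to 0.629), and was the decapping gene past 1.5-fold. Its reads and interval rest on an inferred exon length of 7879 bases, 2.00 times the annotated 3936 bases.

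The LSM proteins form the ring that binds the ends of deadenylated mRNAs. LSM2 to LSM7 are also part of a nuclear ring on U6 RNA, in which LSM8 replaces LSM1. Of 7 genes, 5 lay above 0 and 2 below 0, with a median difference of 0.14. LSM3 stood at 25.01 FPKM in JNJ-7706621 and 18.1 FPKM in DMSO, a ratio of 1.38 (1.29 to 1.48). LSM5 stood at 17.4 FPKM in JNJ-7706621 and 13.4 FPKM in DMSO, a ratio of 1.30 (1.22 to 1.40). LSM6, the least abundant of the ring, stood at 2.67 FPKM in JNJ-7706621 and 1.80 FPKM in DMSO, a ratio of 1.48 (1.21 to 1.82) on 242 and 167 reads.

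The other ring genes lay nearer to 1. LSM4 had 45.7 FPKM in JNJ-7706621 and 41.4 FPKM in DMSO, a ratio of 1.10 (1.05 to 1.16). LSM1, which marks the cytoplasmic ring, had 27.9 FPKM in JNJ-7706621 and 26.01 FPKM in DMSO, and LSM8, which marks the nuclear ring, had 2.75 FPKM in JNJ-7706621 and 2.49 FPKM in DMSO. The interval of LSM1 included 1, and that of LSM8 ran from 1.01 to 1.205. Other genes share 38.5% of the exon bases of LSM1, and the median of the ring was 0.25 without LSM1. LSM2 and LSM7 lay below 0, and their intervals included 1.

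The core of the exosome is a ring of 6 proteins, EXOSC4 to EXOSC9, with a cap of 3 RNA-binding proteins, EXOSC1 to EXOSC3. The core has no catalytic activity of its own in human cells. All 9 genes had a difference above 0, with a median of 0.14, a range of 0.0056 to 0.46 and none past 1.5-fold; EXOSC4, the nearest to 0, lay at -0.01 and -0.0080 when the libraries were rescaled to equal sums or to the median ratio. With the 2 trends taken off it lay at -0.08 and -0.10, and EXOSC6 lay at -0.02 with that of protein-coding genes. EXOSC2 of the cap stood at 16.4 FPKM in JNJ-7706621 and 11.7 FPKM in DMSO, a ratio of 1.40 (1.30 to 1.52). The intervals of EXOSC2, EXOSC3, EXOSC7 and EXOSC8 lay above 1. EXOSC7 stood at 4.44 FPKM in JNJ-7706621 and 3.59 FPKM in DMSO, a ratio of 1.24 (1.08 to 1.42). EXOSC8 stood at 9.996 FPKM in JNJ-7706621 and 8.36 FPKM in DMSO, a ratio of 1.196 (1.08 to 1.33). The intervals of EXOSC1, EXOSC4, EXOSC5, EXOSC6 and EXOSC9 included 1. Other genes share 24.4% of the exon bases of EXOSC4 and 13.6% of those of EXOSC7.

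The nucleases that dock on the core were divided. DIS3, the main exosome nuclease in the nucleus, stood at 2.90 FPKM in JNJ-7706621 and 4.16 FPKM in DMSO, a ratio of 0.698 (0.634 to 0.768). DIS3L, its cytoplasmic counterpart, stood at 16.6 FPKM in JNJ-7706621 and 15.1 FPKM in DMSO, a ratio of 1.10 (1.04 to 1.17). DIS3 was accordingly 0.174 of the level of DIS3L in JNJ-7706621 and 0.276 in DMSO. EXOSC10, the nuclear nuclease known as RRP6 in yeast, stood at 8.95 FPKM in JNJ-7706621 and 9.89 FPKM in DMSO, a ratio of 0.905 (0.838 to 0.978). An antisense gene covers 36.6% of the exon length of EXOSC10, so its value is uncertain.

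The 6 genes of nonsense-mediated decay all had a difference below 0, with a median of -0.23 and a range of -0.81 to -0.02. UPF2 (chr10:11920022-12043170), which bridges the helicase UPF1 and the exon junction complex, had the lowest FPKM ratio of the 52 decay genes. It stood at 2.06 FPKM in JNJ-7706621 and 4.34 FPKM in DMSO on 276 and 597 reads, a ratio of 0.474 (0.409 to 0.547). The ratio lies beyond 2-fold, while the pseudocount of 1 brings the log2 difference to -0.81. By this difference UPF2 lay at percentile 2.76 of all genes measured.

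SMG1 (chr16:18804853-18926454), the kinase that phosphorylates UPF1, stood at 2.35 FPKM in JNJ-7706621 and 4.10 FPKM in DMSO, a ratio of 0.574 (0.537 to 0.613). Near-identical SMG1 pseudogenes lie on the same chromosome, so reads could be split among the copies. The 7 copies named SMG1P1 to SMG1P7 had at most 0.617 FPKM in JNJ-7706621 and 0.759 FPKM in DMSO, and together 250 and 320 reads against 1394 and 2488 for SMG1. SMG5, an adaptor that binds phosphorylated UPF1, stood at 17.1 FPKM in JNJ-7706621 and 21.2 FPKM in DMSO, a ratio of 0.804 (0.759 to 0.852). SMG6, the endonuclease of the pathway, stood at 2.86 FPKM in JNJ-7706621 and 3.32 FPKM in DMSO, a ratio of 0.862 (0.778 to 0.955), and the gene HIC1 on the opposite strand covers 22.9% of its exon length.

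UPF1 and UPF3B differed by less than the counting error. UPF1, the helicase at the centre of the pathway, stood at 8.53 FPKM in JNJ-7706621 and 8.63 FPKM in DMSO, with an interval of 0.923 to 1.06. UPF3B, which contacts the exon junction complex, stood at 2.48 FPKM in JNJ-7706621 and 2.53 FPKM in DMSO, with an interval of 0.791 to 1.21. UPF2 was 0.241 of the level of UPF1 in JNJ-7706621 and 0.503 in DMSO, and 0.831 of the level of UPF3B in JNJ-7706621 against 1.72 times that level in DMSO.

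Direction went with exon length over the decay genes. With boundaries of 4500 and 9000 bases chosen after the values were seen, the 11 decay genes with exon lengths over 9000 bases were all below 0, with a median of -0.25. One of them, PARN, has an inferred length of 9284 bases against 4382 annotated. Among 1565 protein-coding genes of that length, 966 were below 0 and the median was -0.10. With the trends over all genes and over protein-coding genes taken off, 2 and 3 of the 11 decay genes lay above 0. The 11 then had medians of -0.14 and -0.12, against -0.05 and -0.01 for the protein-coding genes of that length. The 20 decay genes under 4500 bases had a median of 0.10, against 0.05 for 4300 protein-coding genes of that length. The 21 decay genes in between had a median of -0.02, against -0.0085 for 4297 protein-coding genes. Spearman's rho of the difference with exon length was -0.47 over the 52 decay genes and -0.14 over 10162 protein-coding genes. With the trend over all genes taken off, rho was -0.28 over the 52 decay genes. All were computed across genes within the same pair of libraries, and genes are not independent replicates.

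Exon length was also divided among the complexes. Its median was 3029 bases in the LSM ring and 3578 bases in the exosome core, against 6821 bases in CCR4-NOT and 10568 bases in the SMG factors. With the trend over all genes taken off, 8 of 9 exosome core genes remained above 0, and with that over protein-coding genes 7 of 9, each with a median of 0.15. All 6 nonsense-mediated decay genes remained below 0 with either trend taken off, with medians of -0.28 and -0.30. The LSM ring had 4 genes above 0 and 3 below with either. With the trend over all genes taken off SMG1 no longer passed 1.5-fold, at -0.50, and the decapping genes had a median of -0.10 in place of -0.25.

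**Figure D3:**
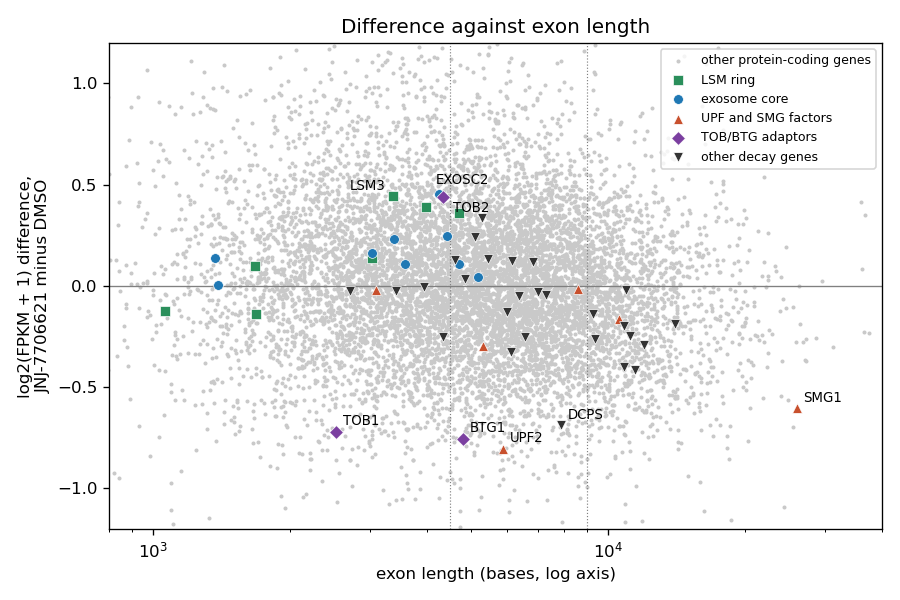
Difference in log2(FPKM + 1), JNJ-7706621 minus DMSO, against exon length on a log axis, for the 52 decay genes (coloured symbols by complex) and other protein-coding genes (grey). Dotted lines mark 4500 and 9000 bases. Of 10162 protein-coding genes, 182 lie outside the axes. The LSM and exosome core genes all lie to the left of 9000 bases, and SMG1 is the decay gene with the longest exons.

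Further genes of the same pathways were listed in 6 groups of 93 genes in all, of which 86 passed the filter. Of these, 5 were 1.5-fold higher and 4 were 1.5-fold lower in the JNJ-7706621 library, or 5.81% and 4.65%. Among all genes the shares were 8.53% and 6.77%, and among protein-coding genes 7.14% and 5.14%. So few genes do not set the lists apart from either. Differences of 44 listed genes lay above 0 and those of 42 below 0, with a median of 0.0049. The 18 measured decay cofactors had a median of 0.10, with 2 higher and 1 lower at 1.5-fold. BTG2 was past 2-fold. NOCT, a CCR4-related protein with a daily rhythm, stood at 3.12 FPKM in JNJ-7706621 and 1.26 FPKM in DMSO, a ratio of 2.48 (1.88 to 3.29), while the pseudocount of 1 brings its log2 difference to 0.87. TUT7, which adds uridines to shortened tails, was lower, at 1.90 FPKM in JNJ-7706621 and 3.51 FPKM in DMSO.

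The 16 exosome cofactors had a median of 0.03. Among them ZFC3H1, which links nuclear polyadenylated RNA to the exosome, passed 1.5-fold, at 2.61 FPKM in JNJ-7706621 and 4.71 FPKM in DMSO, a ratio of 0.554 (0.4995 to 0.614). TTC37, a part of the cytoplasmic SKI complex that feeds the exosome, stood at 4.64 FPKM in JNJ-7706621 and 7.16 FPKM in DMSO. NOP53, a nucleolar factor of ribosome maturation, stood at 42.0 FPKM in JNJ-7706621 and 59.0 FPKM in DMSO.

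The other factors of nonsense-mediated decay and of the exon junction complex, 18 measured, had a median of -0.10, with 7 above 0, 11 below 0 and none past 1.5-fold. Those with the largest differences in size were NCBP1, a cap-binding subunit, at -0.35, CASC3, an exon junction protein, at -0.29, and NBAS at -0.29. The 11 measured silencing proteins had a median of -0.24, with 2 above 0 and 9 below 0. DICER1, which cuts microRNA precursors, stood at 2.82 FPKM in JNJ-7706621 and 4.24 FPKM in DMSO. PUM2, a repressor that binds the untranslated tail region of mRNAs, and TNRC6A, a scaffold that recruits deadenylases to silenced mRNAs, had differences of -0.39 and -0.36. Poly(A)-binding proteins and their partners had a median of 0.14 over 7 genes, and PABPC4 passed 1.5-fold, at 27.6 FPKM in JNJ-7706621 and 16.8 FPKM in DMSO. PABPN1, the nuclear poly(A)-binding protein, had a difference of -0.40, and PAIP2, which restrains PABPC1, one of 0.33.

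Some RNAs, noncoding ones among them, are well known as substrates of nonsense-mediated decay, and 16 such genes were measured. Their differences went both ways, with 7 above 0, 9 below 0 and a median of -0.08. SNHG12, a host gene of small nucleolar RNAs, stood at 7.36 FPKM in JNJ-7706621 and 3.92 FPKM in DMSO, and UPP1, an enzyme of uridine breakdown, at 9.93 FPKM in JNJ-7706621 and 5.97 FPKM in DMSO. GADD45B, a stress-response gene, stood at 1.13 FPKM in JNJ-7706621 and 3.38 FPKM in DMSO, a ratio of 0.333 (0.241 to 0.454). ATF4, a transcription factor of the stress response, stood at 209 FPKM in JNJ-7706621 and 317 FPKM in DMSO. Levels of these RNAs do not measure their decay, and a level per gene does not separate the transcripts of that gene.

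**Figure D4:**
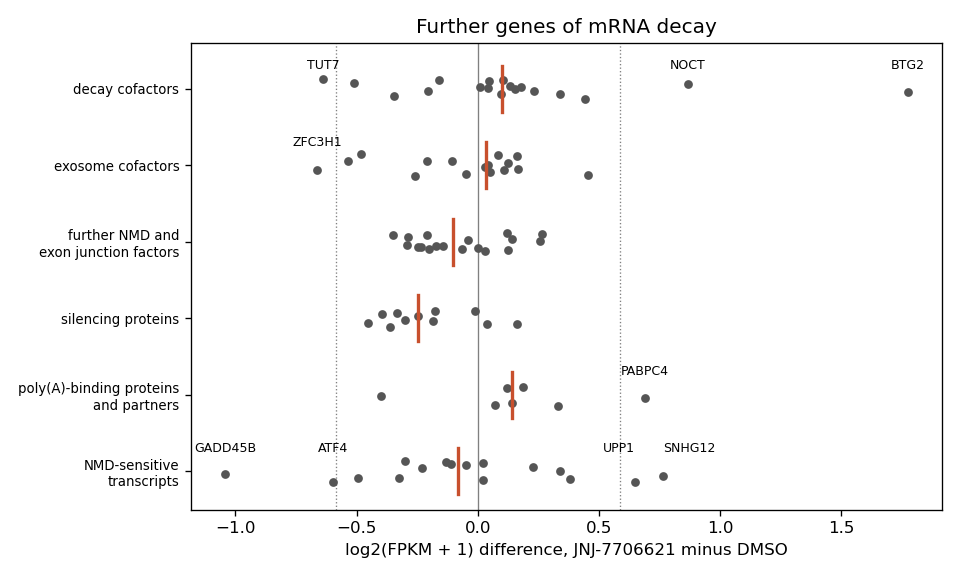
Difference in log2(FPKM + 1), JNJ-7706621 minus DMSO, of 86 further genes in 6 lists, 1 point per gene, with the list medians as vertical bars and dotted lines at 1.5-fold. Points are spread vertically for legibility, and genes past 1.5-fold are named. The medians run between -0.24 for the silencing proteins and 0.14 for the poly(A)-binding proteins.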

How the data were processed

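Total RNA of 2 cultures was sequenced, and groups were taken from the sample labels. The authors deposited FPKM values per gene, per the file headers, and the submitters' processing notes name hg38 and edgeR. The aligner, counter, annotation release and strand setting were not given in the sources used here. Of 4 value columns, 2 match the samples. The other 2 carry the same group names with the number 2, match no sample record used here and were not used.

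Multiplying FPKM by exon length and depth returns whole reads, from which both depths were found using GENCODE release 29 exon lengths. Where the annotated length gave no whole reads (tolerance 0.0001), the nearest length between 0.25 and 4 times the annotated one was taken, as for 33 of the 52 decay genes. For DCPS and PARN it was 2.00 and 2.12 times the annotated length. Reads were recovered for 27805 of 28014 annotated genes above 0, and made up 99.7% of each total.

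Differences used a pseudocount of 1, which understates those of low genes, and a filter at a mean of 1 FPKM or more. Counting intervals are exact 95% Clopper-Pearson intervals, given the reads of both libraries added together. No test was run. The length and GC trend was a quadratic least-squares fit in log2 exon length and GC content of the longest transcript. Scripts (Python 3.11.15, numpy 2.4.6, pandas 2.3.3, scipy 1.17.1) were tested on simulated data. Every decay gene could be named. From each further list came those past 1.5-fold and the 3 with the largest difference, and BTG3 and LSM8 were added once their values had been seen. The genes and lists were chosen with earlier results of these data known.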

Additional observations from a re-analysis of the deposited data

How the results depend on the processing

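No replicate could be left out, and no paired analysis was possible because 1 column per group matches a sample, and the columns numbered 2 were not analysed. The 52 genes were compared under 8 alternatives and 3 more chosen after seeing the data (protein-coding genes alone as the background, the length and GC trend of protein-coding genes taken off, and the FPKM ratio without a pseudocount). The alternatives for the further lists were chosen after seeing the data. BTG1, TOB1 and DCPS stayed past 1.5-fold lower in each of these. UPF2 did so except with a minimum of 5 FPKM, which leaves it out, and SMG1 except with that minimum and with either trend taken off. No decay gene was 1.5-fold higher in any. Of the 52 differences, 6 changed sign with the trend of all genes taken off, 9 with that of protein-coding genes and 1 under either rescaling. The number 2-fold lower was 1, UPF2, with a pseudocount of 0.1 and with the ratio without a pseudocount, in place of 0. In these settings 3.09% and 3.42% of all genes were 2-fold lower. The number 1.5-fold lower was 3 with a minimum of 5 FPKM, which leaves 37 of the 52 genes, against 5.85% of all genes. With a pseudocount of 0.1, with rescaling to equal sums and with the ratio without a pseudocount, 11.1%, 10.6% and 11.5% of all genes were 1.5-fold lower, above the 9.62% of decay genes. With either trend taken off, 4 of the 52 genes were 1.5-fold lower. All genes then had 6.86% with the trend of all genes and 9.5% with that of protein-coding genes. The median of the decapping genes was -0.14 with a minimum of 5 FPKM, -0.10 with the trend of all genes taken off and -0.065 with that of protein-coding genes. The median of the exosome nucleases was 0.0018 with a minimum of 5 FPKM, which leaves out DIS3. The median of the LSM ring was 0.25 without LSM1, whose exons are overlapped by over 30%. The median of the poly(A)-binding list was 0.078 and 0.045 with the 2 trends taken off, and that of the silencing list was -0.35 with the ratio without a pseudocount. Scaling to the median ratio moved the values by 0.01 on the log2 scale.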
